A study of Bos taurus with 12 samples.

Results

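The HOX genes of the A, B, C and D clusters were followed through differentiation of bovine skeletal myoblasts. They are the 36 of 18436 genes in the expression table whose symbol is HOX, a cluster letter and a paralog number, together with the m6A peaks annotated to those symbols. There were 12 samples: 3 cultures in GM and 3 in DM each gave an input library and a library immunoprecipitated for m6A (IP). GM are proliferating primary myoblasts, taken from longissimus dorsi muscle of newborn Qinchuan cattle and harvested short of full confluence in medium with 20% fetal bovine serum. DM are myotubes formed from these cells after 4 days in medium with 2% horse serum. The cells were described as coming from 1 animal, so p-values measure only the spread between these cultures. Expression is given as FPKM, a fragment count scaled to exon length and library size, in the 6 input libraries, and the number of reads behind each gene's value is unknown because the values used here hold no counts.

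HOX proteins are homeodomain transcription factors that set position along the body axis of the embryo. Their genes lie in 4 clusters, in which the order on the chromosome follows the order of use from head to tail, and genes with the same number in different clusters are paralogs. Cells taken from adult and newborn tissue, muscle included, often keep the HOX pattern of their place of origin in culture. HOX proteins bind DNA with PBX and MEIS partners, and Polycomb and Trithorax complexes hold the clusters silent or active.

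In the ARS-UCD1.2 build the HOXA genes lay on the plus strand of chromosome 4 and the 8 HOXB genes at chr19:37866942-37948673 on the plus strand. The 9 HOXC genes lay at chr5:25977799-26093573 and the 8 HOXD genes at chr2:20724272-20820662, both on the minus strand. HOXA4 lies inside the span of HOXA3 on the same strand, and HOXD3 and HOXD4 share 625 bases, so values of these genes may share reads.

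The identity of the cells was checked on marker lists. All 6 proliferation genes fell in DM, where their summed FPKM was 7.51 to 10.5 against 86.2 to 99.6 in GM. Of 10 myotube genes 7 rose and 1, ACTA1, fell (110 to 70.0 FPKM). Their sum was already 981 to 1140 FPKM in GM, against 1811 to 1889 in DM. Of 7 myoblast genes tested 5 fell, among them MYOD1 and MYF5. At a limma Benjamini-Hochberg adjusted p under 0.05 without the fold limit, 8 myotube genes were higher and 1 lower in DM, and 6 myoblast genes were lower. The share of all genes at that threshold was 42.8%. Fibroblast markers were high in both groups, with sums of 13630 to 13866 FPKM in GM and 13984 to 14768 in DM, and 1 of the 8, FAP, rose. COL1A1 and COL1A2 made up most of these sums, at 6791 and 5757 FPKM in GM and 7420 and 5496 in DM. Without the fold limit, 3 of the 8 were higher and 1 lower in DM at a limma adjusted p under 0.05. Pericyte and smooth muscle markers summed to 2059 to 2508 FPKM in GM and 1659 to 1923 in DM, with 1 of 4 tested genes higher and 1 lower. ACTA2 made up nearly all of these sums, at 2241 FPKM in GM and 1713 in DM. Without the fold limit, 2 of the 4 were higher and 2 lower at a limma adjusted p under 0.05. The other lists were low: endothelial markers summed to at most 0.874 FPKM in a library, immune markers to 2.01, adipocyte markers to 2.66 and Schwann cell markers to 10.7. The part of other cells in the HOX values was not tested, and in bulk RNA fewer cells of a type and less RNA per cell cannot be told apart.

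The cells carried a HOX pattern centred on paralog groups 6 to 10. In GM these 15 genes held 70.2% of all HOX FPKM, the 14 genes of groups 1 to 5 held 16.7% and the 7 genes of groups 11 to 13 held 13.1%. In DM the shares were 71.4%, 15.8% and 12.8%. HOXA9 had the highest mean over the 6 libraries, 9.22 FPKM, followed by HOXD8 at 8.96, HOXC6 at 7.36, HOXA10 at 6.13, HOXC9 at 6.09 and HOXC8 at 5.62. The order of HOXA9 and HOXD8 differed between the groups: HOXA9 stood above HOXD8 in every GM library and below it in every DM library. HOXA10 and HOXC9, next to each other in the order, had overlapping values. None of the 36 reached a mean of 10 FPKM, a level met by 43.6% of the genes tested, and the median of the tested HOX genes was 2.29 FPKM against 8.04 for all tested genes.

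**Figure D1:**
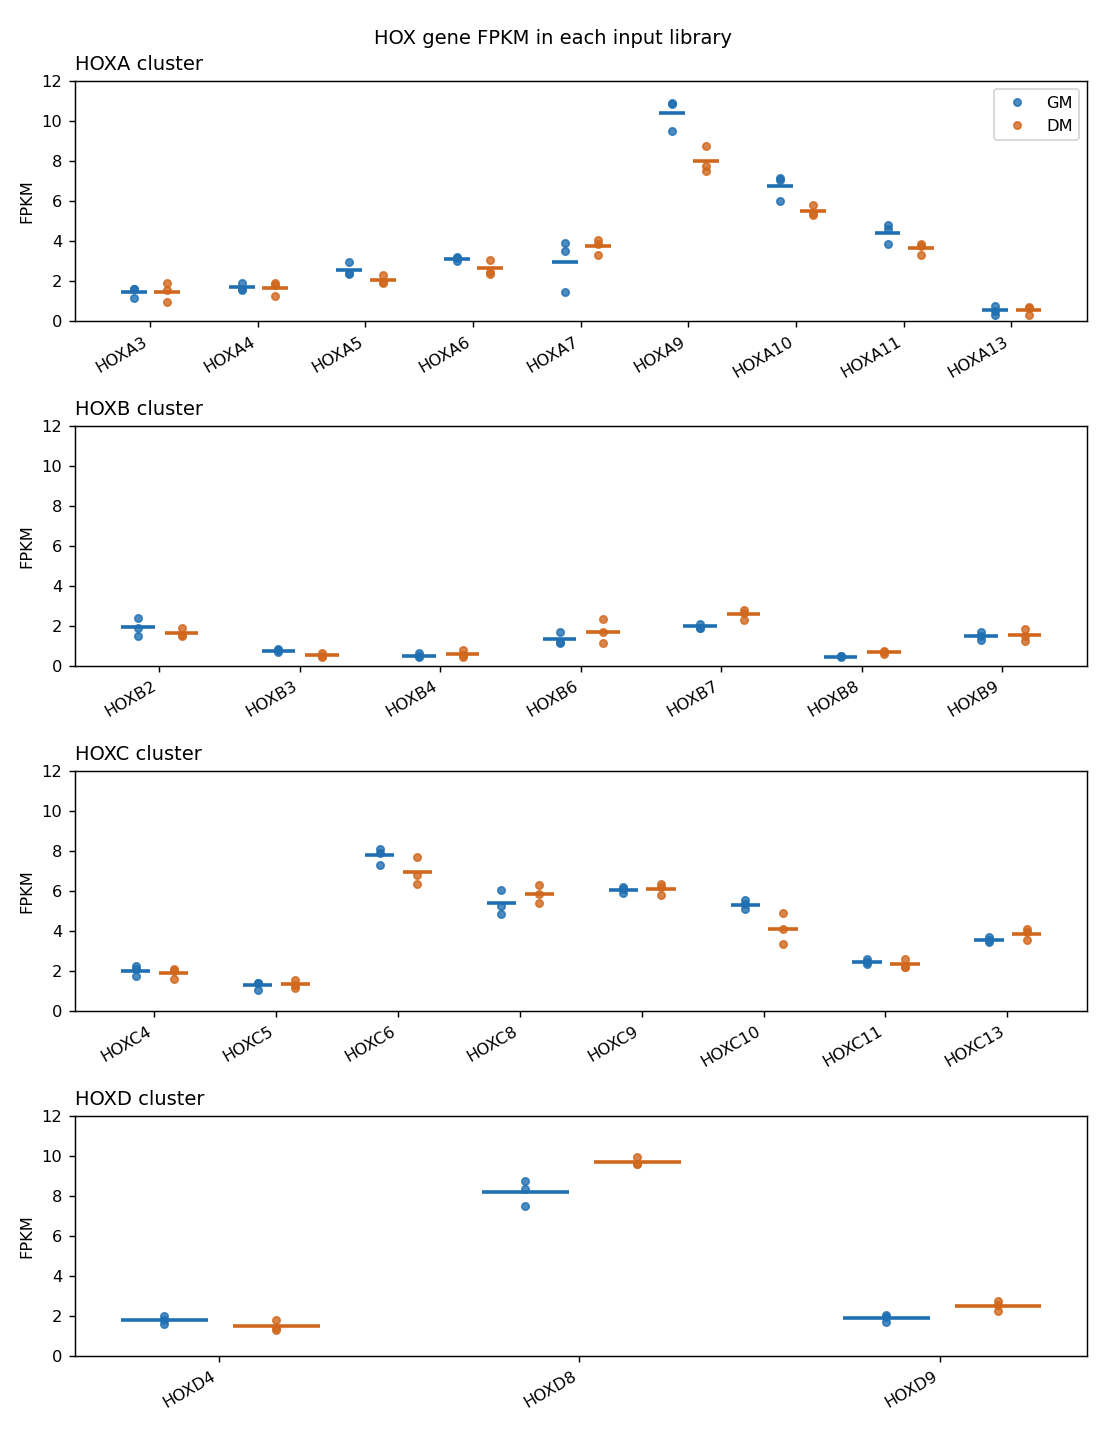
FPKM of the 27 HOX genes tested (y axis, linear) by cluster, with 1 point per input library, GM in blue and DM in orange, and a bar at the mean of 3 libraries. HOXA9 reaches 10.9 FPKM in GM and HOXD8 9.96 in DM, while HOXB genes stay under 3 FPKM.

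The clusters were used unequally. Summed FPKM was 34.6 ± 2.91 (SD, n = 3) in GM and 29.8 ± 2.06 in DM for HOXA, and 34.3 ± 0.864 and 32.8 ± 1.53 for HOXC. HOXB summed to 8.60 ± 0.149 in GM and 9.47 ± 0.637 in DM, and HOXD to 12.7 ± 0.431 and 14.5 ± 0.167. Only for HOXD did the 3 DM sums all lie outside the GM range, at 14.3 to 14.6 against 12.2 to 13.1, and 2 genes, HOXD8 and HOXD9, made up most of the HOXD sum. All HOX genes together gave 90.2 ± 3.86 FPKM in GM and 86.5 ± 2.81 in DM, with overlapping values.

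**Figure D2:**
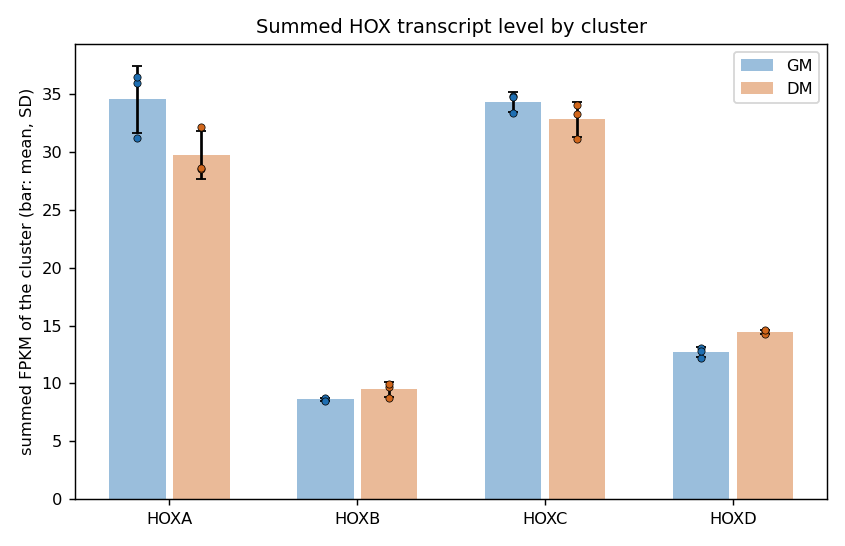
Summed FPKM of the genes of each HOX cluster (y axis from 0), as the mean of 3 input libraries with SD bars and 1 point per library, GM in blue and DM in orange. HOXA and HOXC lie between 28.5 and 36.5 FPKM in every library, HOXB and HOXD between 8.47 and 14.6.

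Of the 36 HOX genes, 27 had a mean of at least 0.5 FPKM and were tested with limma. The other 9, among them HOXA2, HOXB5, HOXC12 and 5 HOXD genes, ranged from 0 to 0.532 FPKM over the libraries, and HOXB5 and HOXD1 were listed at 0 in at least 1 library. Just under the limit was HOXC12 at 0.371 FPKM, and just above it were HOXA13 at 0.546 and HOXB4 at 0.570.

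No HOX gene was called different between GM and DM. The call, an unadjusted p under 0.05 with a fold change over 1.5 in limma, was made for 0 of 27 HOX genes and for 11.9% of the 12302 genes tested, 4.9% higher and 6.97% lower in DM. Without the fold limit, 10 HOX genes (37.0%) had an unadjusted p under 0.05, against 50.7% of all genes. After Benjamini-Hochberg adjustment over all genes 6 remained (22.2%), against 42.8%. Of these, 3 were higher in DM, where the share of all genes was 16.1%, and 3 were lower, where it was 26.7%. The values of the groups did not overlap for 9 HOX genes (33.3%), against 54.1% of all genes. The 95% interval lay within 1.5-fold in both directions for 26 of 27, against 75.9%, and on this log2(FPKM + 1) scale the change of genes of a few FPKM is understated. The median log2 change was -0.01 for the HOX genes and -0.05 for all genes, and it moved by over 0.1 for all genes with the scaling, to 0.06 in TPM, where the HOX median was 0.08.

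**Figure D3:**
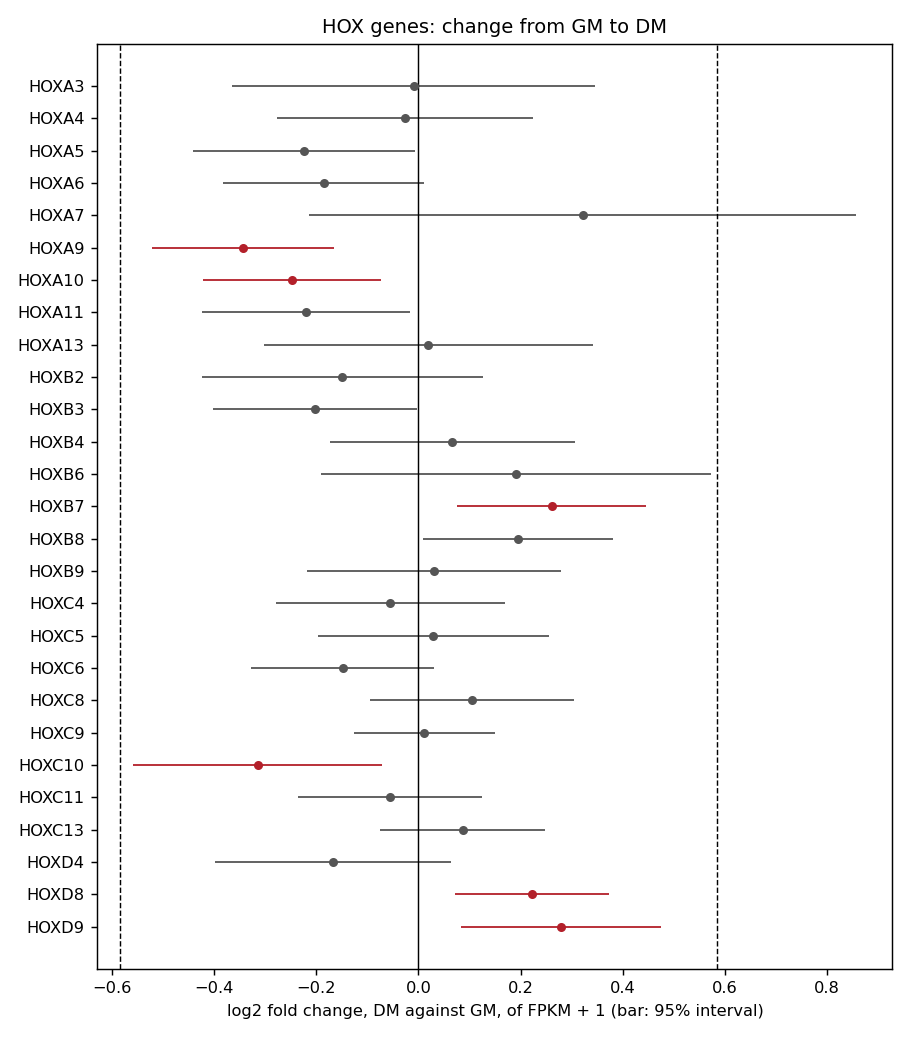
Log2 fold change of FPKM + 1 from GM to DM (x axis) for the 27 HOX genes tested, with 95% intervals from limma, red where the Benjamini-Hochberg adjusted p is under 0.05 and dashed lines at 1.5-fold. Points lie between -0.34 and 0.32, and the interval of HOXA7 alone crosses a dashed line.

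In the HOXA cluster the genes past the adjusted threshold were lower in DM. HOXA9 (chr4:68877182-68880322), whose protein is known for work in blood and limb development, measured 10.8, 10.9 and 9.52 FPKM in GM and 8.75, 7.53 and 7.75 in DM. The groups did not overlap, and the log2 change was -0.34 ± 0.08 (SE; limma, Benjamini-Hochberg adjusted p = 0.00788). HOXA10 (chr4:68862439-68872086), known for a role in the uterus and the limb, measured 7.05, 7.15 and 6.03 FPKM in GM and 5.32, 5.80 and 5.41 in DM. Its lowest GM value stood just above its highest DM value, with a log2 change of -0.25 ± 0.08 (limma adjusted p = 0.0294). HOXA9 stayed past the threshold with any 1 library left out. HOXA10 did not without GM replicate 1 or 2 or DM replicate 1 or 3 (limma adjusted p 0.0822 to 0.0968).

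In TPM, where each library is scaled to the same total, HOXA9 had a limma adjusted p of 0.0653 and HOXA10 one of 0.217, both still lower in DM. FPKM summed to 415740 to 434458 per library in GM and 386436 to 390827 in DM.

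The remaining HOXA genes did not pass the adjusted threshold. HOXA5, known for its role in the lung, was at 2.58 ± 0.345 FPKM (SD, n = 3) in GM and 2.06 ± 0.233 in DM with no overlap (log2 change -0.22, limma adjusted p = 0.0894). HOXA11, a limb gene, was at 4.41 ± 0.500 and 3.64 ± 0.292 (-0.22, limma adjusted p = 0.0777), and HOXA6 at 3.12 ± 0.120 and 2.63 ± 0.365. HOXA3 (log2 change -0.01) and HOXA4 (-0.03) were near 0 in change and turned sign in TPM. HOXA13, the most 5' member, was at 0.536 ± 0.226 FPKM in GM and 0.555 ± 0.205 in DM. HOXA7 measured 3.49, 3.89 and 1.47 FPKM in GM and 3.85, 4.07 and 3.30 in DM. GM replicate 3 stood apart from the other GM libraries, which overlapped DM. The log2 change was 0.32 with an interval of -0.21 to 0.86, and 0.01 without GM replicate 3.

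In the HOXD cluster the 2 highest genes were higher in DM. HOXD8 (chr2:20781821-20783046) measured 7.52, 8.35 and 8.75 FPKM in GM and 9.60, 9.59 and 9.96 in DM. Every DM library exceeded every GM library, and the log2 change was 0.22 ± 0.07 (limma adjusted p = 0.0261). HOXD9 (chr2:20789261-20790650), a paralog of HOXA9, measured 1.96, 2.06 and 1.69 FPKM in GM and 2.75, 2.26 and 2.55 in DM (log2 change 0.28 ± 0.08, limma adjusted p = 0.0295). HOXD9 thus stood higher in DM while HOXA9 stood lower, and HOXB9 and HOXC9 did not pass the threshold. HOXD8 missed it without GM replicate 1 or 2 or any 1 DM library (limma adjusted p 0.0520 to 0.0881), and HOXD9 without GM replicate 1 or 3 or DM replicate 1 or 3 (0.0613 to 0.104). HOXD4 was at 1.80 ± 0.211 FPKM in GM and 1.496 ± 0.268 in DM (limma adjusted p = 0.218).

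HOXB genes were low, and 1 of 7 tested passed the adjusted threshold. HOXB7 (chr19:37882057-37885440) measured 1.91, 1.93 and 2.13 FPKM in GM and 2.68, 2.80 and 2.29 in DM, with no overlap (log2 change 0.26 ± 0.08, limma adjusted p = 0.0307). It missed the threshold without GM replicate 1 or 2 or DM replicate 1 or 2 (limma adjusted p 0.0822 to 0.0951). HOXB8 was at 0.479 ± 0.029 FPKM in GM and 0.694 ± 0.084 in DM (log2 change 0.19, limma adjusted p = 0.0865), and HOXB3 at 0.775 ± 0.084 and 0.543 ± 0.096 (-0.20, 0.0943), both with no overlap. The groups overlapped for HOXB2 at 1.96 ± 0.447 and 1.65 ± 0.214 FPKM, HOXB4 at 0.532 ± 0.09995 and 0.608 ± 0.174, HOXB6 at 1.36 ± 0.312 and 1.72 ± 0.605 and HOXB9 at 1.49 ± 0.208 and 1.55 ± 0.302.

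In the HOXC cluster, HOXC10 (chr5:26042341-26047427), a gene of the hindlimb and lower trunk, measured 5.55, 5.34 and 5.09 FPKM in GM and 4.11, 4.89 and 3.37 in DM. The groups did not overlap, and the log2 change was -0.31 ± 0.11 (limma adjusted p = 0.0431). It missed the threshold in TPM (0.153) and without any 1 GM library or DM replicate 1 or 3 (0.0551 to 0.116). HOXC6, a thoracic gene, was at 7.79 ± 0.422 FPKM in GM and 6.94 ± 0.683 in DM (limma adjusted p = 0.160). HOXC9 was nearly level at 6.06 ± 0.172 and 6.12 ± 0.278, with a log2 interval of -0.13 to 0.15. HOXC8 was at 5.39 ± 0.619 and 5.86 ± 0.437, HOXC13 at 3.58 ± 0.128 and 3.86 ± 0.298 and HOXC11 at 2.46 ± 0.143 and 2.34 ± 0.237. HOXC4 was at 2.02 ± 0.263 and 1.91 ± 0.246 and HOXC5 at 1.299 ± 0.200 and 1.34 ± 0.191, none of them past the threshold.

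Summed by paralog group, the 3 genes of group 10 gave 12.2 ± 0.811 FPKM in GM and 9.71 ± 0.936 in DM, and the 3 of group 8 gave 14.1 ± 0.824 and 16.3 ± 0.204. Group 6 gave 12.3 ± 0.507 and 11.3 ± 0.219, and group 11 gave 6.99 ± 0.630 and 6.04 ± 0.126. In these 4 of 13 groups, 3 lower and 1 higher in DM, the GM and DM libraries did not overlap. Among all genes taken singly, 54.1% did not overlap. These sums are in FPKM, whose total per library was lower in DM (386436 to 390827) than in GM (415740 to 434458). Whether the lower sums go beyond that difference was not tested. For group 9 the sums were 19.9 ± 1.13 and 18.2 ± 1.06 and overlapped.

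Partners and regulators of HOX genes, with other homeobox and positional genes, were read from 4 lists. The first held PBX, MEIS and PKNOX genes, and beside them the homeobox genes TGIF1, TGIF2 and HOMEZ. Of its 11 genes tested in limma, 0 were called (11.9% of all genes), 5 had an unadjusted p under 0.05 (45.5%, against 50.7%) and 4 an adjusted p under 0.05 (36.4%, against 42.8%). These 4, named after their values were seen, were PBX2 (log2 change -0.31), PKNOX1 (-0.37) and TGIF2 (-0.41), lower in DM, and MEIS3 (0.30), higher. Of 32 Polycomb, Trithorax and related regulators 1 was called (3.125%, against 11.9% of all genes): EZH2, the histone H3 lysine 27 methyltransferase, fell from 9.68 ± 0.313 to 4.64 ± 0.455 FPKM (log2 change -0.92, limma adjusted p = 2.973e-05). Its paralog EZH1 was at 4.21 ± 0.453 in GM and 5.55 ± 0.108 in DM (0.33, limma adjusted p = 0.00881), under the fold limit. The median log2 change was -0.09 for the first list and -0.05 for the chromatin regulators, against -0.05 for all genes.

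Of 13 retinoic acid pathway genes tested, 2 were called higher and 0 lower in DM by limma, with a median log2 change of -0.04. The share called was 15.4%, near the 11.9% of all genes. With a limma adjusted p under 0.05 and no fold limit, 4 were higher and 2 lower in DM (46.2%, against 42.8% of all genes). ALDH1A1, which makes retinoic acid, rose from 8.09 ± 0.867 to 18.1 ± 1.78 FPKM (log2 change 1.07, limma adjusted p = 4.764e-05), and CRABP2, which carries it to the nucleus, from 23.2 ± 1.07 to 40.9 ± 1.24 (0.79, limma adjusted p = 1.293e-05). Of 22 other positional factors 1 rose and 4 fell (22.7% called, against 11.9% of all genes), with a median of -0.22 against -0.05 for all genes. TBX15 rose (log2 change 0.86), and MEOX1 (-1.10), LBX1 (-0.77), IRX3 (-0.76) and DLX2 (-0.74) fell. LBX1 and MEOX1 are known from early muscle precursors and somites.

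N6-methyladenosine (m6A) was read from 1 list of peaks per group, called on the pooled libraries of the group, so a peak has no replicate error. Fold enrichment is IP over input within a peak. HOX genes held 63 of 19739 GM peaks, in 34 of the 10601 genes with a peak, and 68 of 20790 DM peaks, in 32 of 11800. Of the 27 HOX genes tested, all under 10 FPKM, 26 had a peak in GM and 25 in DM. Among all 6937 genes from 0.5 to under 10 FPKM, 71.4% had a peak in GM and 77.7% in DM. HOXD1 and HOXD4 had none in either list by name, and HOXA10 and HOXB5 had none in DM. By position, HOXA10 and HOXD4 did hold peaks: a DM peak with a fold enrichment of 3.30 overlaps the HOXA10 peak of GM (2.83) but is listed under a gene that lies inside HOXA10, and a peak listed under HOXD3 covers part of HOXD4. By position the counts were 35 genes in GM and 34 in DM.

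Median fold enrichment was 3.50 for HOX peaks and 3.27 for all peaks in GM, and 3.99 and 3.38 in DM. By the authors' annotation 55.6% of HOX peaks in GM were in the 3′ UTR, 27.0% in another exon and 17.5% in the 5′ UTR, against 42.6%, 41.3% and 16.1% of all GM peaks. In DM the HOX shares were 48.5%, 30.9% and 20.6%, against 45.3%, 36.5% and 18.2% of all DM peaks, so the 3′ UTR shares lay closer together there. Of the GM HOX peaks 90.5% overlapped a DM peak, and of the DM HOX peaks 80.9% overlapped a GM peak, against 85.3% and 71.3% of all peaks. The false discovery rate was 0.05 or more for 8 GM and 10 DM HOX peaks, among them both GM peaks of HOXB5. These are 12.7% and 14.7% of the HOX peaks, against 9.72% and 11.2% of all peaks.

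Peaks were listed even for HOX genes of very low expression. Of the 9 HOX genes under 0.5 FPKM, 8 had a peak in GM and 7 in DM, against 29.1% and 32.4% of the 6134 genes at that level. Their fold enrichments had a median of 6.095 in GM and 7.45 in DM, beside 6.53 and 6.92 for all genes at that level. HOXD10, at 0.082 FPKM in GM and 0.078 in DM, had a GM peak with a fold enrichment of 17.4 and 4 DM peaks with 2.98 to 16. HOXD3, at 0.286 and 0.288 FPKM, had 6 peaks in each list, and 2 of them in each list reach into the bases it shares with HOXD4. The stronger of these, at 10.5 in GM and 7.99 in DM, runs past the end of HOXD3 into bases of HOXD4 alone. HOXD4 had a mean of 1.65 FPKM, and which gene this peak comes from was not tested. It is counted in the medians above, and in GM it is the highest value listed for HOXD3. Over genes with a peak, Spearman's rho between mean FPKM and highest fold enrichment was -0.18 for 34 HOX genes in GM and -0.44 for 32 in DM, against -0.38 and -0.40 over all genes. These are descriptions across genes that share libraries, and the part of low input coverage in them was not tested.

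Of 38 HOX pairs of 1 GM and 1 DM peak, in 28 genes, 10 differed by over 1.5-fold (26.3%), against 25.1% of all 10239 pairs. The ratio was higher in DM for 5, where the share of all pairs was 14.2%, and lower for 5, where it was 10.8%. The median log2 ratio was -0.01 for HOX pairs and 0.07 for all pairs. None of these ratios has a test.

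HOXA5 held a change in each direction: a pair in an exon at chr4:68898905-68899501 (GM peak) went from 1.84 to 5.48, and a pair in the 3′ UTR at chr4:68901204-68901681 from 7.98 to 4.09. HOXA2, at about 0.2 FPKM, had the lowest ratio of DM to GM among the HOX pairs, from 37.0 to 11.4 over the same 797 exon bases. HOXA9 went from 8.28 to 5.18 at its 3′ end, chr4:68880143-68880322, while its other pair was at 3.36 and 2.76. HOXB3 went from 6.95 to 4.51 and HOXC12 from 4.90 to 2.84, with a false discovery rate over 0.05 for the DM peak of HOXC12. Fold enrichment was higher in DM for HOXB8 in the 5′ UTR, 10.6 against 5.81, for HOXD11, 8.52 against 4.90, for HOXD9, 3.37 against 1.96, and for HOXB6, 2.34 against 1.52, with a false discovery rate over 0.05 for its GM peak. HOXA2, HOXC12 and HOXD11 were under 0.5 FPKM in both groups. The paired peaks of HOXD9 and HOXB6, and those at the end of HOXA9, differ in extent. For HOXA9 they cover 180 exon bases in GM and 359 in DM, with 50.1% of the DM peak shared. For HOXD9 they cover 326 exon bases in GM and 742 in DM, with 43.9% of the DM peak shared. For HOXB6 they cover 118 and 323, with 36.5% of the DM peak shared.

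Other HOX genes had pairs within 1.5-fold. HOXC6 had a pair at 5.59 in GM and 5.21 in DM, HOXC10 at 6.08 and 5.50, HOXD8 at 4.00 and 4.47, HOXB7 at 5.44 and 5.32 and HOXA11 at 5.89 and 5.76. HOXC9 was expressed at about the level of HOXA10 and had weak peaks, with fold enrichments of 1.60 and 1.44 in GM and 1.78 and 1.47 in DM. HOXA7 had a 5′ UTR peak of 20.7 in GM that overlapped 2 DM peaks, of 5.32 and 1.92, and so formed no pair.

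**Figure D4:**
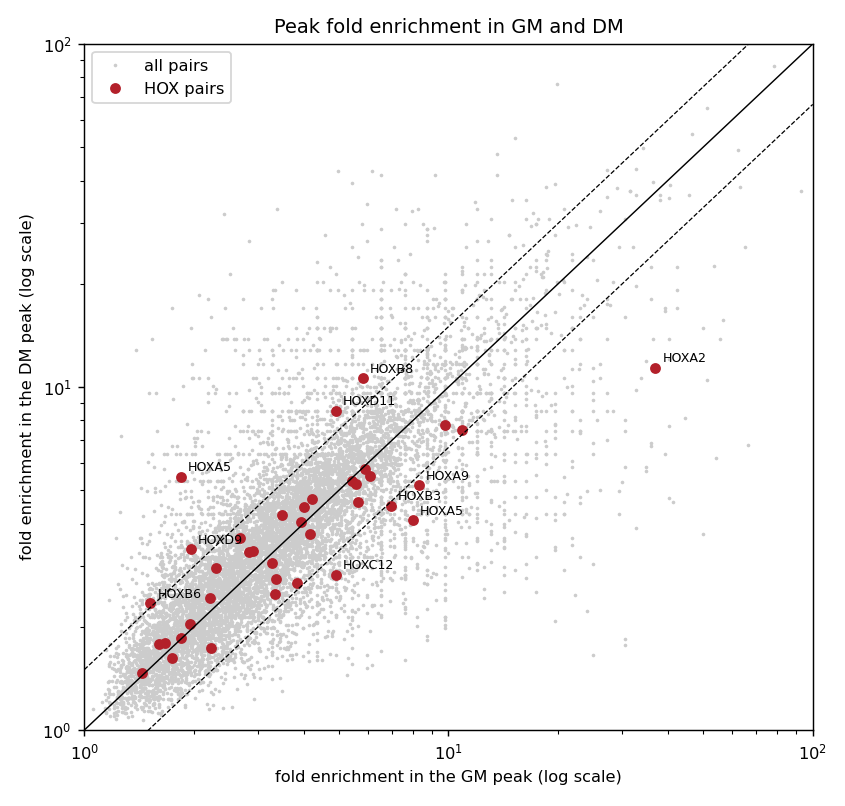
Fold enrichment of each pair in GM (x axis) and DM (y axis), both on log scales, with all 10239 pairs in grey and the 38 HOX pairs in red, a solid line at equality and dashed lines at 1.5-fold. The 10 HOX pairs beyond the dashed lines are named, and of the HOX pairs HOXA2 lies farthest to the right at 37.0 in GM.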

How the data were processed

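Input and m6A IP libraries of 3 GM and 3 DM cultures were analysed from the deposited tables. The authors aligned reads to ARS-UCD1.2 with HISAT2 and computed the deposited FPKM with StringTie for the 6 inputs. Peak lists were made by the authors with exomePeak on the pooled libraries of each group; their deposited fold enrichment is a linear ratio of IP over input, the score column the authors deposited holds the unadjusted p-value, and separate columns hold log10 of it and of the false discovery rate. Peaks rest on uniquely mapped reads without duplicates. How the FPKM treat reads that match several HOX genes is not given in the sources used here.

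For each gene averaging 0.5 FPKM or more, log2(FPKM + 1) was fitted using limma 3.58.1 (R 4.3.3) with a variance trend, and p-values were adjusted by Benjamini-Hochberg over all 12302 genes. Peaks were paired in Python 3.11.15 (pandas 2.3.3, numpy 2.4.6, scipy 1.17.1) where exon blocks of exactly 1 GM and 1 DM peak overlapped on the same strand. Figures were drawn with matplotlib 3.10.9. Steps were tested on simulated data. The members and lists were chosen with earlier results of these data known. Every HOX gene tested is named with values, and of each list the called genes, at most 5. HOXB1, HOXB13 and HOXD12 were not analysed here, and 1 member is not reported individually here. Alternatives covered pseudocount, filter, scaling, variance trend, replicate block, thresholds, left-out libraries and peak rules.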

Additional observations from a re-analysis of the deposited data

How the results depend on the processing

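The count of HOX genes called stayed at 0 under every alternative of the limma fit and both stricter rules, and was 6 with an adjusted p under 0.05 and no fold limit. That count of 6 was then run under other settings, a step chosen after seeing the data. It was 8 with no variance trend (adding HOXB3 and HOXB8), 6 with either other pseudocount or with 0.5 FPKM required in every library of 1 group, 3 with no filter on FPKM (HOXA9, HOXD8 and HOXB8), 4 in TPM (HOXB7, HOXB8, HOXD8 and HOXD9), 4 with size factors (HOXA9, HOXB7, HOXD8 and HOXD9) and 1 to 4 with a library left out. Same-numbered GM and DM libraries did not deviate together (r = -0.079, -0.12 and -0.21). With deviations taken around means of 3 libraries, these values do not settle whether the numbers pair the samples. A fit with the replicate block gave 3 (HOXA9, HOXA10 and HOXC10), without HOXB7, HOXD8 and HOXD9. TPM turned the sign of HOXA3 (0.079), HOXA4 (0.064), HOXC4 (0.035) and HOXC11 (0.040), and size factors that of HOXA3 (0.027) and HOXA4 (0.013), none past the threshold. With 1 library left out the log2 change ranged from -0.14 to 0.15 for HOXA3, -0.091 to 0.081 for HOXA4, -0.083 to 0.13 for HOXA13, -0.020 to 0.12 for HOXB4, -0.058 to 0.11 for HOXB9, -0.13 to 0.017 for HOXC4, -0.046 to 0.081 for HOXC5 and -0.011 to 0.043 for HOXC9. In TPM the DM to GM ratio of summed levels was 0.938 for HOXA, 1.2 for HOXB, 1.04 for HOXC, 1.24 for HOXD and 1.05 for all HOX genes, against 0.861, 1.10, 0.956, 1.14 and 0.959 in FPKM, so HOXC and the total changed direction. Changed peak pairs numbered 2 at a ratio over 2, 1 higher and 1 lower in DM. Pairs higher in DM numbered 2 among peaks with a fold enrichment of at least 2, and 3 with an overlap of 50% of both peaks. The shares of all genes and of all pairs under these other settings are not given here, so the counts have no background beside them. The cause of the shifts between settings was not tested. The 3 libraries a group and the use of FPKM without counts limit what can be seen for HOX genes of low FPKM.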

Other observations

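Besides the HOX genes, the table lists 24 other genes inside the 4 clusters, 13 of them on the strand opposite to the HOX genes, and the ones named here were chosen after their values were seen. The highest was ENSBTAG00000052715 (chr5:26066531-26068539, plus strand), which has no symbol in the table and lies between HOXC11 and HOXC12. Its level was 61.2 ± 1.98 FPKM (SD, n = 3) in GM and 54.6 ± 4.44 in DM, above every HOX gene (log2 change -0.16, limma Benjamini-Hochberg adjusted p = 0.0792). It held peaks with the same bounds in both lists, one with a fold enrichment of 2.72 in GM and 3.49 in DM and one with 2.15 and 3.90, with no test. RF01904 and RF01905, short entries beside it on the HOXC strand, were at 37.6 ± 1.53 and 22.1 ± 0.676 FPKM in GM and 37.4 ± 3.57 and 21.6 ± 2.40 in DM.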
